A study of Mus musculus with 6 samples.

Results

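The 9 genes described here, Rbp4, Rdh10, Aldh1a1, Aldh1a2, Aldh1a3, Aldh1a7, Cyp26b1, Rarb and Rarg, carry, oxidise, sense or degrade vitamin A, and were picked out by gene symbol from 20071 gene IDs in a count table of bone marrow mesenchymal stem cells (MSCs). They were chosen on values of the same genotype comparison, with Aldh1a7 as the lead gene, so their differences between genotypes are given as a description. No p is printed for them, and where a threshold is applied to them the count is descriptive too. The study asked how PCIF1, which methylates a capped mRNA whose first nucleotide is an adenosine (the m6Am mark), acts in osteogenesis. MSCs came from femurs of 6-week-old C57BL/6J Prrx1-Cre;Pcif1fl/fl mice (libraries labelled CKO) and Pcif1fl/fl littermates (labelled WT), and 3 libraries of each genotype were sequenced after 7 days in osteogenic medium with dexamethasone (100 nM), ascorbic acid (50 µg/mL) and β-glycerophosphate (5 mM). The controls carry the floxed alleles without Cre, so "WT" does not mean an unmodified locus, and the Prrx1 driver is active in limb mesenchyme and its descendants, not in blood-derived cells. The series description speaks of duplicates, whereas the labels give 3 libraries per genotype, and nothing in the labels ties a library to its own mouse.

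Retinol travels in blood bound to RBP4. Inside a cell RDH10 oxidises it to retinaldehyde, and the ALDH1A enzymes oxidise retinaldehyde to retinoic acid, the ligand of the nuclear receptors RARα, RARβ and RARγ. CYP26 enzymes hydroxylate and clear retinoic acid, which is known in bone as a regulator of the growth plate and of osteoblast and adipocyte differentiation. Aldh1a7 is a rodent paralogue of Aldh1a1, lies beside it, and encodes a protein that acts poorly on retinaldehyde.

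The libraries held 20258209 to 28227696 counts, and 1 count was worth 0.0359 to 0.0498 CPM (counts scaled to library size with TMM factors). Pcif1 itself was counted at 41.3 ± 1.79 CPM (SD, n = 3) in WT and 38.9 ± 1.01 CPM in CKO (log2 fold change -0.09, SE 0.09, adjusted p = 0.645 by edgeR's quasi-likelihood test), so the gene-level count does not show the deletion, a count over the whole gene cannot resolve the floxed exons, and the antisense gene Zfp335 covers 16.9% of its exon sequence. WT library 3 had 3.63% of counts on mitochondrial genes against 1.40% to 1.57% in the other 5. Xist was at 232 to 443 CPM in the WT libraries and 0.722 to 1.79 CPM in the CKO libraries, so in this comparison the sex of the mice and the genotype cannot be told apart. Macrophage markers summed to 31622 to 35047 CPM in WT and 32560 to 35741 CPM in CKO, so every library labelled MSC also held abundant macrophage RNA. The listed mesenchymal markers were present in all 6 as well (Prrx1 at 211 to 283 CPM, sum of 14 markers 12728 to 17362 CPM). Most of that sum was Col1a1, Col1a2 and Col3a1, and single markers differed between the genotypes in both directions, as given further below.

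The first sequences to show are those of the Aldh1a1 and Aldh1a7 pair, because reads of such close relatives can be counted for the wrong gene. On chromosome 19 (GRCm38, GENCODE M21) Aldh1a1 occupies chr19:20492715-20643465 on the plus strand and Aldh1a7 chr19:20692953-20727562 on the minus strand, and neither overlaps another gene's exons. The longest transcript of Aldh1a1 (2358 bases) and that of Aldh1a7 (2066 bases) aligned over 2042 bases, of which 1818 were identical (89.0%). Their longest identical stretch is 100 bases of coding sequence across a splice junction, in exons 11 and 12 of 16 of Aldh1a1 (chr19:20629063-20630671, plus strand) and exons 8 and 9 of 13 of Aldh1a7 (chr19:20708329-20709491, minus strand). It is given 5′ to 3′ in lower case throughout, since no base of it tells the genes apart.
Aldh1a1 and Aldh1a7, shared coding stretch: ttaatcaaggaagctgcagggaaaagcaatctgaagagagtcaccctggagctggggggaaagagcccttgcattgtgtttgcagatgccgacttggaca

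The similarity extends to the promoters. RefSeq (GRCm38.p6) lists a start of each gene with 90 bases before it that align without a gap, and over these 91 bases, start included, 3 differ (96.7% identical). Further upstream identity was 59.3% over 145 aligned bases. The stretches below run 5′ to 3′ and end at the annotated start, an A in both, and capitals mark the 3 bases that differ.
Aldh1a1, chr19:20601878-20601968, plus strand: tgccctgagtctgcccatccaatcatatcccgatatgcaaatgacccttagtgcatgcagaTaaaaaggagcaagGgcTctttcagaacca
Aldh1a7, chr19:20727556-20727646, minus strand: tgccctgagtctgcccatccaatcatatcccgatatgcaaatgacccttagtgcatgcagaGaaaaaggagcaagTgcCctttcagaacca

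The third stretch is from Rarb, whose promoter is a textbook target of retinoic acid through a direct repeat. The RefSeq promoter table (250 bases before to 50 after each start) held 10 entries for 7 of the 9 genes, and both strands were searched for the repeat unit NGNTCA placed as a direct repeat with a spacer of 2 bases (DR2) or 5 bases (DR5). A DR5 match was found in 1 entry, that of Rarb, at bases -52 to -37 from the start, and 0.861% of 32851 promoters held such a match. DR2 was found in 1.12% of promoters and in none of the 10 entries. The capitals below mark the letters matched in the repeat of Rarb, read 5′ to 3′ and ending at the annotated start.
Rarb, chr14:16575476-16575540, minus strand: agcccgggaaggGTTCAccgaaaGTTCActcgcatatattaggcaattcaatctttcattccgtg

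Since PCIF1 acts on a starting adenosine, the first base of each entry was read as well. It was A for both Aldh1a1 entries and for the Aldh1a2 and Aldh1a7 entries, and G or T for those of Cyp26b1, Rarb, Rarg and Rbp4, against an A in 34.4% of all promoters. Annotations differ here: a GENCODE transcript starts at the RefSeq start only for the Aldh1a2 entry and the Rarg entry with a T. None starts at the entries of Aldh1a1, Aldh1a7, Cyp26b1, Rarb and Rbp4, or at the other Rarg entry. The Aldh1a1 transcript used for the alignment above begins with G and that of Aldh1a7 with A. These are annotated starts, and neither the start used in these cells nor the mark on it was measured here.

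Counted across the 9 genes, 3 were called lower in CKO (Rbp4, Aldh1a7 and Aldh1a1), none was called higher, 5 were tested and not called, and Aldh1a3 had too few counts to be tested. The call required a log2 fold change of 1 or more in either direction and an adjusted p under 0.05. Over all 13733 genes tested, 2.50% were called lower and 1.03% higher by this rule, and 4.51% and 2.88% by the adjusted p alone. Every CKO library lay below every WT library for the same 3 of the 9, and 15.7% of all genes tested lay that way and 15.0% the other way. Since the genes were chosen on this comparison, nothing is read from these shares. Without WT library 3, which stood apart in its mitochondrial share, the log2 fold changes were -4.19 for Rbp4, -4.05 for Aldh1a7 and -1.10 for Aldh1a1.

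**Figure D1:**
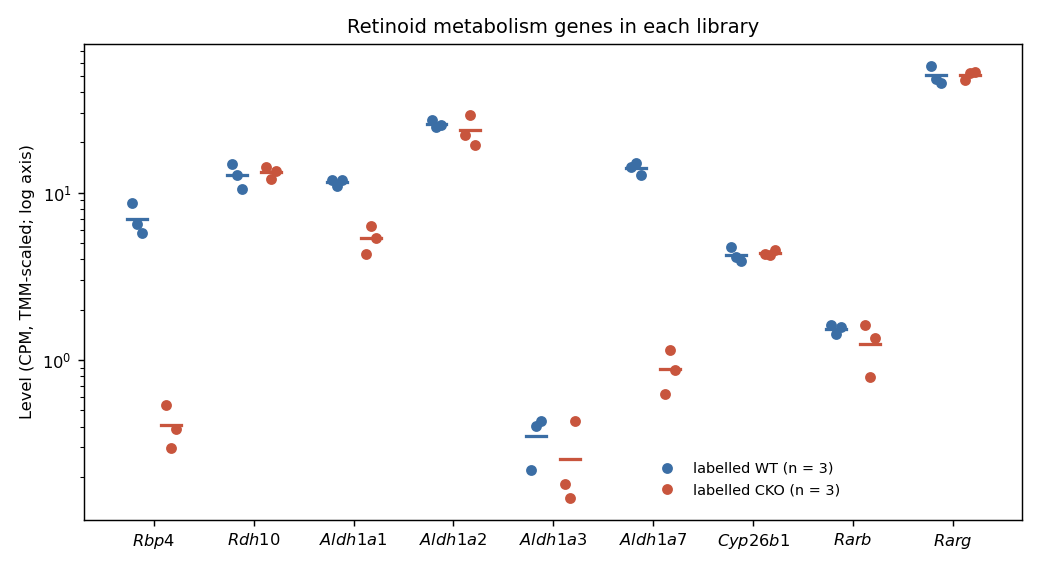
Level of the 9 retinoid genes in each of the 6 libraries, in TMM-scaled CPM on a log axis. Points are libraries (blue, labelled WT; red, labelled CKO), short lines are the means of 3 libraries, and the red points of Rbp4, Aldh1a1 and Aldh1a7 lie below all blue ones while those of the other genes overlap them.

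Rbp4, the plasma carrier of retinol, which is made mainly by liver and by fat cells, was under 1 CPM in each library labelled CKO. Its levels were 8.74, 6.54 and 5.77 CPM in the 3 WT libraries and 0.540, 0.299 and 0.385 CPM in the 3 CKO libraries. The groups did not overlap. The log2 fold change was -4.07 (SE 0.29), a CKO mean at 5.81% of the WT mean. The CKO values rest on 12, 6 and 8 counts, with exact Poisson 95% intervals of 6.20 to 20.96, 2.20 to 13.1 and 3.45 to 15.8 counts, which cover counting error only. Rbp4 lies at chr19:38116629-38125281 on the minus strand, and none of the 150-base windows of its transcript occurs in another gene.

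Of the enzymes that oxidise retinol to retinaldehyde, the 9 genes hold Rdh10, and Adh1 is described with the wider list. Rdh10, the main retinol dehydrogenase of the embryo (chr1:16105774-16133734, plus strand), was at 14.9, 12.8 and 10.6 CPM in WT and 14.2, 12.1 and 13.5 CPM in CKO. The CKO values fall within the WT range. The log2 fold change was 0.06 (SE 0.16, 95% interval -0.25 to 0.37).

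Of the retinaldehyde dehydrogenases, the most abundant per length was Aldh1a2, the main source of retinoic acid in the embryonic mesoderm (chr9:71215789-71296243, plus strand). It was at 27.3, 24.6 and 25.6 CPM in WT and 22.1, 29.4 and 19.4 CPM in CKO, so the groups overlapped and the highest library of the 6 was a CKO library. The log2 fold change was -0.13 (SE 0.16, 95% interval -0.44 to 0.18). The spread among the CKO libraries (SD 5.16 CPM) exceeded that among the WT libraries (SD 1.38 CPM).

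Aldh1a1, the cytosolic enzyme that is widespread in adult tissues, was at 11.97, 10.95 and 11.98 CPM in WT and 4.32, 6.37 and 5.39 CPM in CKO. The groups did not overlap, and the CKO mean was 46.1% of the WT mean. The log2 fold change was -1.12 (SE 0.17), close to the fold threshold of 1. Without CKO replicate 1 it was -0.98, inside that threshold.

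Aldh1a7 differed far more. It was at 14.2, 15.0 and 12.8 CPM in WT and 0.630, 1.14 and 0.866 CPM in CKO, with no overlap, and the log2 fold change was -3.99 (SE 0.22). The CKO mean was 6.28% of the WT mean. The counts behind these values were 325, 409 and 358 in WT and 14, 23 and 18 in CKO.

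Aldh1a3, the dehydrogenase of the eye and nasal region (chr7:66390890-66427517, minus strand), was close to absent in both genotypes. It had 5, 11 and 12 counts in WT and 4, 3 and 9 in CKO, with overlapping groups. At this depth a difference between the genotypes was not detectable for it.

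Because Aldh1a1 and Aldh1a7 are so alike, the share of their sequence that a read could not place was measured. No window of 150 bases, the length of a read end, was shared between the transcripts, and 0.0508%, 2.51% and 7.49% of the Aldh1a7 windows of 100, 75 and 50 bases were. Across 1893 windows of 150 aligned bases the number of differing bases ran from 2 to 35, with a median of 15, and 2.69% of windows held 2 or fewer. These windows allow no mismatch, and how the study's counting treated reads that map to both genes is not given in the sources used here.

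**Figure D2:**
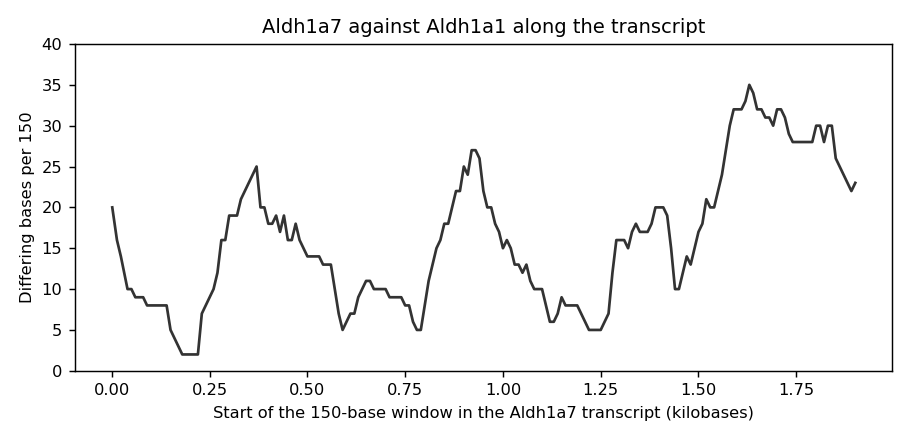
Differing bases per 150 aligned bases between the Aldh1a7 and Aldh1a1 transcripts (vertical axis) against the start of the window in the Aldh1a7 transcript in kilobases (horizontal axis). The line runs from 2 to 35, and no window is identical.

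The counts of the pair also moved unequally. For every 100 counts on Aldh1a1 there were 119, 137 and 107 counts on Aldh1a7 in WT and 14.6, 18.0 and 16.1 in CKO. Aldh1a7 thus made up 51.7% to 57.9% of the pair's counts in WT and 12.7% to 15.2% in CKO. With both genes summed into 1 row, a measure that no misplaced read between them can change, the log2 fold change was -2.04 (SE 0.16). How many of the counts remaining on Aldh1a7 in CKO came from Aldh1a1 reads was not tested. The genes called lower above, Rbp4, Aldh1a7 and Aldh1a1, all lie on chromosome 19. Anxa1, another gene of chromosome 19 named only as context, had a log2 fold change of 0.25 (SE 0.12, adjusted p = 0.283 by edgeR). It was picked by no rule, and a difference along the chromosome was not tested.

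Per length, the sum of the family and the shares within it differed between the genotypes. In CPM per kilobase of exon, the 4 Aldh1a genes summed to 20.6 ± 0.714 (SD, n = 3) in WT and 12.0 ± 2.50 in CKO. Aldh1a2 made up 55.3% ± 1.86 of that sum in WT and 86.8% ± 2.38 in CKO. Aldh1a7 went from 32.9% ± 2.37 to 3.54% ± 0.692, Aldh1a1 from 11.4% ± 0.642 to 9.13% ± 1.43, and Aldh1a3 stayed under 1% in each library. These shares depend on the length used: per kilobase of the longest transcript, Aldh1a1 made up 21.2% of the sum in WT and 17.3% in CKO. The CKO sum was highest in CKO library 2, the library with the highest Aldh1a2 level. Aldh1a2 itself overlapped between the genotypes (means of 11.4 CPM per kilobase of exon in WT and 10.4 in CKO), so its larger share goes with the smaller sum.

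**Figure D3:**
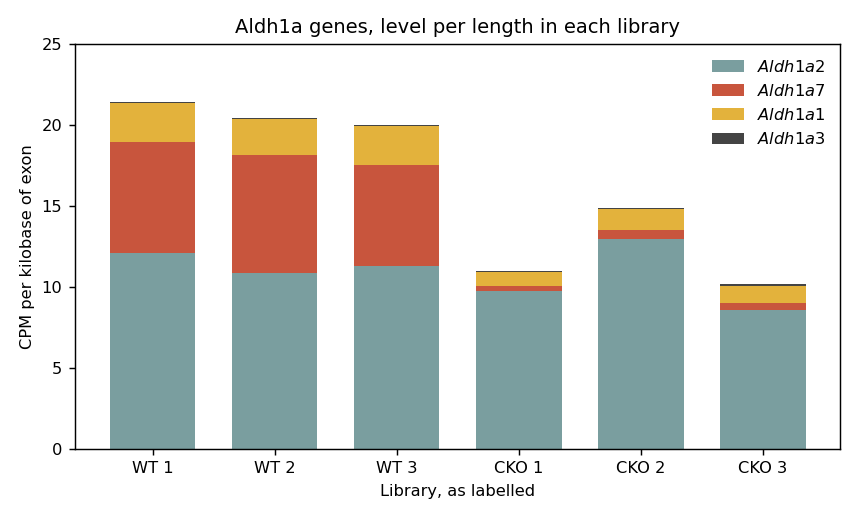
Level per length of the 4 Aldh1a genes in each library, as stacked bars in CPM per kilobase of exon starting at 0. The red Aldh1a7 segment is 6.21 to 7.28 in the WT libraries and 0.305 to 0.554 in the CKO libraries, while the Aldh1a2 segments of both genotypes overlap in height.

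Clearance of retinoic acid was represented by Cyp26b1 (chr6:84571414-84593908, minus strand), the hydroxylase of the developing limb and skeleton. It was at 4.76, 4.12 and 3.91 CPM in WT and 4.32, 4.23 and 4.57 CPM in CKO. The CKO values again fell within the WT range, with a log2 fold change of 0.04 (SE 0.16, 95% interval -0.28 to 0.36).

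Of the receptors, Rarg (chr15:102234938-102257517, minus strand), the form that dominates in cartilage and skin, was at 57.6, 48.1 and 45.5 CPM in WT and 47.3, 52.0 and 52.8 CPM in CKO. The groups overlapped fully, with a log2 fold change of 0.01 (SE 0.12, 95% interval -0.22 to 0.24). Rarb (chr14:16430839-16819156, minus strand), the receptor whose repeat is printed above, was at 1.62, 1.43 and 1.58 CPM in WT and 1.62, 0.796 and 1.35 CPM in CKO. Its groups overlapped too, and the log2 fold change was -0.29 (SE 0.30, 95% interval -0.88 to 0.30). Rarb rests on 16 to 44 counts per library and is uncertain for another reason: 38.4% of its exonic bases overlap the antisense genes Gm48162 and Top2b, 45.8% of the 150-base windows of its longest transcript also occur in Top2b, and whether the counting used strand is not given. Top2b was at 111 to 144 CPM with a log2 fold change of 0.03 (SE 0.11, adjusted p = 0.913 by edgeR).

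The order of the 9 genes by level per length was read within each genotype. In WT it was Rarg (11.8 CPM per kilobase of exon), Aldh1a2 (11.4), Aldh1a7 (6.79), Rbp4 (5.22), Rdh10 (3.07), Aldh1a1 (2.36), Cyp26b1 (0.796), Rarb (0.293) and Aldh1a3 (0.0760). The ranges of Rarg and Aldh1a2 overlapped, as did those of Aldh1a7 and Rbp4, and the other neighbours did not overlap. In CKO, Rdh10 (3.19), Aldh1a1 (1.09) and Cyp26b1 (0.817) followed Rarg (11.9) and Aldh1a2 (10.4), and Aldh1a7 (0.426) and Rbp4 (0.304) had dropped to sixth and seventh, above Rarb (0.238) and Aldh1a3 (0.0550). There the ranges of Rarg and Aldh1a2, of Aldh1a7 and Rbp4, and of Rbp4 and Rarb overlapped. With the longest transcript as the length, Aldh1a1 (4.93) came above Rdh10 (3.56) in WT, and Rarb (0.404) above Rbp4 (0.351) in CKO.

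Beyond the 9 genes, 66 further genes of the pathway were listed by their textbook roles, of which 56 had a row and 40 had enough counts to be tested. The list was drawn up with earlier results of these data known, so its shares and adjusted p-values are given as a description. Their adjusted p-values come from the same edgeR fit, adjusted by Benjamini-Hochberg over all 13733 genes. Of the 40, 3 fell (Adh1, Rarres2 and Meis2) and none rose, that is 7.5% called lower against 2.50% of all genes. By the adjusted p alone, Meis1 was lower and Crabp2 higher as well. The median log2 fold change of the 40 was -0.13 against 0.0017 over all genes tested.

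Adh1, a cytosolic alcohol dehydrogenase that oxidises retinol among other alcohols, was at 5.59, 5.04 and 5.02 CPM in WT and 0.630, 0.647 and 0.289 CPM in CKO. The groups did not overlap, and the log2 fold change was -3.30 (SE 0.28, adjusted p = 0.000310). The other 4 retinol dehydrogenases of the list that were tested (Rdh5, Dhrs9, Adh5 and Adh7) were not called, nor were any of the 7 retinal reductases, among them Dhrs3 (log2 fold change -0.08, SE 0.08, adjusted p = 0.617), which turns retinaldehyde back into retinol.

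Rarres2, which encodes the adipokine chemerin and responds to retinoids in skin, was at 7.21, 6.06 and 5.45 CPM in WT and 0.810, 0.249 and 1.06 CPM in CKO. It fell by 3.12 on the log2 scale (SE 0.37, adjusted p = 0.00156), and Lrrc61, which covers 33.6% of its exon sequence, had a log2 fold change of -0.38 (SE 0.14, adjusted p = 0.155). The homeobox gene Meis2, induced by retinoic acid in the proximal limb, was at 12.4, 12.1 and 17.1 CPM in WT and 5.18, 7.62 and 7.02 CPM in CKO (log2 fold change -1.07, SE 0.20, adjusted p = 0.0154). Its call was lost without WT replicate 3 (log2 fold change -0.89), without CKO replicate 1 (adjusted p = 0.0726) and without CKO replicate 3 (adjusted p = 0.0625). Meis1, its close relative, was at 9.46 ± 0.571 CPM (SD, n = 3) in WT and 5.33 ± 0.968 CPM in CKO (by edgeR, log2 fold change -0.83, SE 0.17, adjusted p = 0.0213), and the adjusted p was 0.0745, 0.108 and 0.0957 without WT replicate 2, CKO replicate 1 and CKO replicate 2. Among the other tested targets of retinoic acid in the list, Tgm2, Hoxa4, Hoxb4, Rarres1 and Hic1 were not called.

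Among the proteins that hold retinoids inside cells, Crabp2, which delivers retinoic acid to its receptors, was at 21.2, 20.3 and 16.9 CPM in WT and 29.3, 31.0 and 27.2 CPM in CKO. Every CKO library lay above every WT library (log2 fold change 0.58, SE 0.12, adjusted p = 0.0256), but the adjusted p rose to between 0.0725 and 0.124 without WT replicate 2 or any 1 of the 3 CKO replicates.

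Of the other receptors in the list, Rara, Rxra, Rxrb and Ppard were tested and not called. Rara had a log2 fold change of -0.39 (SE 0.13, adjusted p = 0.123), Rxra of 0.06 (SE 0.11, adjusted p = 0.778) and Rxrb of -0.11 (SE 0.21, adjusted p = 0.809). Rxrb, which encodes a partner of the RARs on DNA, was at 29.3 CPM in WT library 3 against 52.1 and 55.3 CPM in the other WT libraries, and without that library its log2 fold change was -0.34 with an adjusted p of 0.00364. All 6 listed coregulators of these receptors were tested and not called. The 16 untested genes stayed under 1 CPM in every library, among them Stra6 (the cell-surface receptor for RBP4), Lrat (which esterifies retinol for storage), Crabp1, Rxrg, and Cyp26a1 and Cyp26c1, the other retinoic acid hydroxylases.

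**Figure D4:**
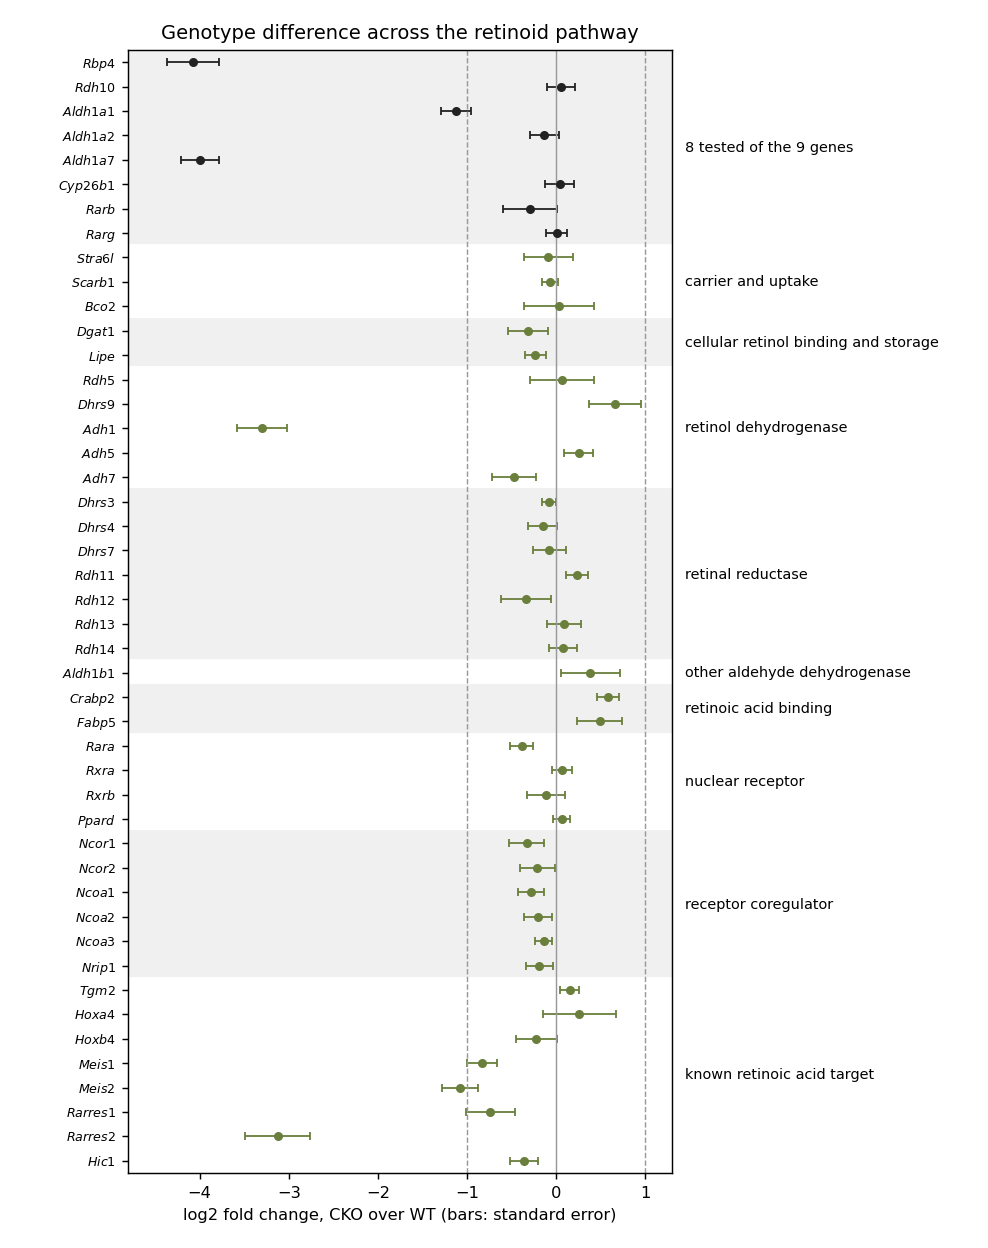
Log2 fold change (CKO over WT, bars are standard errors) of the 8 tested genes of the 9 (black) and of 38 of the 40 tested genes of the wider list (green), grouped by role. Dashed lines mark log2 fold changes of -1 and 1, and Rbp4, Aldh1a7, Aldh1a1, Adh1, Rarres2 and Meis2 lie beyond -1.

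The genes whose profile over the 6 libraries was nearest to that of Aldh1a7 were found among 12636 genes with a mean of at least 1 CPM, as the root mean square difference of centred log2 CPM. They were Chrdl1 (0.286), Wdr86 (0.383), Gdpd2 (0.412), Susd2 (0.430) and Adamts15 (0.436). Chrdl1, which encodes a secreted BMP antagonist, was at 8.09 to 11.2 CPM in WT and 0.433 to 0.647 CPM in CKO. Of the retinoid genes, Rbp4 was the 8th nearest (0.501), Adh1 the 11th (0.550), Rarres2 the 40th (0.880) and Aldh1a1 the 237th (1.44).

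Rbp4, Adh1 and Rarres2 are expressed by fat cells, so markers of that and other cell types were read in the same libraries. The marker lists too were drawn up with earlier results of these data known, and their shares are descriptive. Of 9 adipocyte markers tested, 6 fell (66.7%, against 2.50% of all genes tested). Adipoq, the adipokine adiponectin, was at 42.9 to 53.8 CPM in WT and 0.289 to 1.49 CPM in CKO. Plin1, the lipid droplet coat protein of mature fat cells, was at 2.17 to 4.12 CPM in WT and had 0 counts in all CKO libraries, where 3 counts would be 0.135 to 0.149 CPM. Cfd (1.18 to 1.95 CPM in WT) was likewise at 0 counts in every CKO library, and Cidec (1.18 to 1.86 CPM in WT) was at 0 in 2 of the 3 and at 0.0498 CPM in the other. Pparg and Plin4 fell by 1.57 and 1.90 on the log2 scale (adjusted p = 0.000557 and 0.000234 by edgeR). Fabp4 was at 66.3 to 78.8 CPM in WT and 85.3 to 107 CPM in CKO and did not pass the test (log2 fold change 0.46, adjusted p = 0.0545 by edgeR), with every CKO library above every WT library. Lpl (log2 fold change 0.23) and Cebpa (-0.19) were not called either. Fabp4, Lpl and Cebpa carry most of the list's sum, 792 to 838 CPM in WT and 671 to 871 CPM in CKO. Which cells of the culture the counts of the listed markers came from was not tested.

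Other lists moved in part. Among 14 mesenchymal markers 3 fell, Cxcl12 (log2 fold change -2.44), Lepr (-2.72) and Eng (-1.11), and 2 rose, Thy1 (1.52) and Ly6a (1.12), against 2.50% and 1.03% of all genes tested. By the adjusted p alone 5 were lower, Pdgfra and Vcam1 included, and 5 higher, among them Cd44, Col1a1 and Col1a2. Cxcl12 and Lepr mark the stromal cells of adult marrow. Of 9 osteoblast markers tested, 4 fell (44.4%; Sp7, Alpl, Ibsp and Pth1r) and none was called higher. By the adjusted p alone, 1 of these 9, Col1a1, was higher (log2 fold change 0.61, adjusted p = 0.0154 by edgeR). None of 12 macrophage and 7 endothelial markers was called, although Fcgr1, a macrophage Fc receptor, was higher in each CKO library at a smaller fold (log2 fold change 0.89, adjusted p = 0.00605 by edgeR), and of the epithelial markers Krt19 alone was tested (0.441 to 1.00 CPM in WT, 1.26 to 2.84 CPM in CKO, not called). The part of these marker changes in the lower Rbp4, Aldh1a7 and Aldh1a1 was not tested, and in bulk RNA fewer cells of a type and less RNA per cell cannot be told apart.

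**Figure D5:**
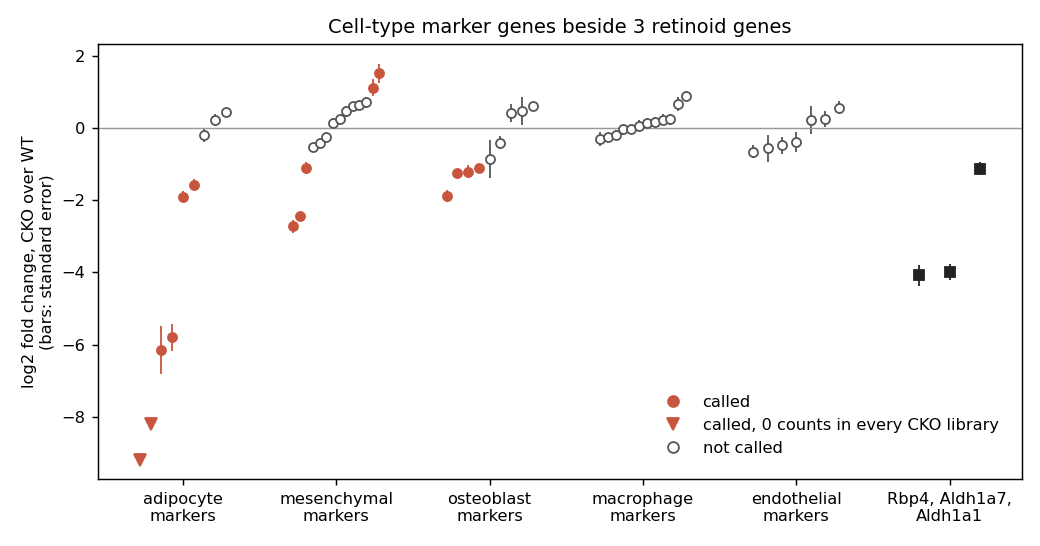
Log2 fold change (CKO over WT) of each tested marker gene by cell type, beside Rbp4, Aldh1a7 and Aldh1a1 (black squares, in that order). Filled red symbols were called, open circles were not, bars are standard errors, and triangles mark Plin1 and Cfd, which had 0 counts in every CKO library and whose fitted value depends on the prior count.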

How the data were processed

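The deposited table holds raw counts per gene for 6 libraries of paired 150-base reads. The submitters' processing notes name FastQC, HISAT2, DESeq2 and mm10; the counting tool, the annotation and the use of strand are not given in the sources used here. The table has 20163 rows, of which 92 repeated the ID and the counts of another row and were dropped, leaving 20071. Genotypes were compared with edgeR 4.0.16 (R 4.3.3): filterByExpr, TMM factors, the quasi-likelihood test without covariates and Benjamini-Hochberg adjustment over 13733 genes. DESeq2 1.42.0, limma 3.58.1 voom, other scalings, filters and rows, left-out libraries and a replicate block were alternatives. The 95% intervals of fold changes were computed from the SE. Gene models are from GENCODE M21 (GRCm38, the mm10 assembly), promoters from RefSeq (GRCm38.p6), and alignments used Biopython 1.88. The 9 genes and the lists were chosen with earlier results of these data known. Named were the 9 genes, the wider list's genes that passed the adjusted p, 10 key pathway genes, the 5 profiles nearest to Aldh1a7 and Pcif1; Anxa1, Top2b, Lrrc61, markers and untested genes are named as context. Some listed genes are counted but not reported here by name. The labels do not say that libraries came from separate mice, so p-values measure the spread between libraries, which may be technical.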

Additional observations from a re-analysis of the deposited data

How the results depend on the processing

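As a description of the chosen genes, the log2 fold change ran from -4.33 to -3.89 for Rbp4, from -4.22 to -3.79 for Aldh1a7 and from -1.26 to -0.98 for Aldh1a1 when each library was left out in turn. Rbp4 and Aldh1a7 changed places in size without WT replicate 1 and without CKO replicate 2. Adh1 and Rarres2 were called in each of the 16 alternatives that refit the model. Leaving out each library in turn gave 253 to 385 genes called lower and 89 to 229 called higher, against 343 and 142. The highest count of higher genes, 229, came without WT replicate 3, and without CKO replicate 1, 2 or 3 it was 91, 90 or 89. Rxrb ran from -0.34 to 0.054 (positive without WT replicate 1) and Rxra from -0.035 (without WT replicate 3) to 0.14. The cause was not tested. By the adjusted p alone the wider list had 1 higher gene, and all genes 620 lower and 396 higher. With the longest transcript as length, 2 of the 9 genes changed WT rank. Shorter windows gave shared percentages of 0.0508, 2.51 and 7.49. Same-numbered libraries did not deviate together (correlations 0.042, -0.058 and -0.017), so no pairing by number was seen. These are deviations from a mean of only 3 libraries, and they cannot exclude a pairing. With a replicate block 326 genes were called lower and 126 higher. With 3 libraries per genotype, Aldh1a3 (3 to 12 counts) could not be compared, and Rarb (16 to 44) only coarsely.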
